A study of Mus musculus with 6 samples.

Results

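The genes described are 4 receptors and 3 ligands of the Notch pathway in the mouse aortic arch: Notch1, Notch2, Notch3, Notch4, Jag1, Jag2 and Dll4. They were chosen by gene symbol, and all 7 were found among the 14298 genes listed. PolyA RNA was sequenced from arches of adult C57/BL6 mice that lack apolipoprotein E, a model of atherosclerosis. The 3 control libraries came from mice of the genotype ApoE-/-;RBPJflox/flox, and the 3 knockout libraries from mice that also carried Cdh5-CreERT, so floxed Rbpj alleles and loss of ApoE are common to both groups. Cdh5-CreERT is a tamoxifen-activated recombinase driven by the promoter of an endothelial cadherin, and the controls carried no recombinase. At 8 weeks of age all mice, controls included, were given tamoxifen for 1 week, and a high-fat diet was then fed for 6 weeks. The libraries are called by the number in their column names, S591, S592 and S594 for the controls and S595, S598 and S599 for the knockouts.

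Notch receptors span the cell membrane once and are activated by Jagged and Delta-like ligands on a neighbouring cell. Ligand binding exposes the receptor to ADAM proteases and then to gamma-secretase, and the freed intracellular domain enters the nucleus, where it binds RBPJ and Mastermind to switch on target genes such as those of the Hes and Hey families. In arteries, Notch1, Notch4 and Dll4 are known mainly from the endothelium, Notch3 from smooth muscle, and Jag1 from both layers. RNA of the whole arch wall mixes these cells, so fewer cells of a type and less RNA per cell cannot be told apart in any of the results.

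The stretches of 250 bases just upstream of the annotated start sites of Notch1, Jag1 and Notch4 are shown. Notch1 and Jag1 were the members whose libraries separated in opposite directions with the smallest p-values, and Notch4 is the member whose window held the fewest CpG. They were taken from RefSeq promoters of build GRCm38.p6, which held all 7 members, and each is written 5′ to 3′ on the gene's own strand with CpG dinucleotides in capitals. The Notch1 window is chr2:26503823-26504072 on the minus strand, the Jag1 window chr2:137116521-137116770 on the minus strand, and the Notch4 window chr17:34564045-34564294 on the plus strand.
Notch1: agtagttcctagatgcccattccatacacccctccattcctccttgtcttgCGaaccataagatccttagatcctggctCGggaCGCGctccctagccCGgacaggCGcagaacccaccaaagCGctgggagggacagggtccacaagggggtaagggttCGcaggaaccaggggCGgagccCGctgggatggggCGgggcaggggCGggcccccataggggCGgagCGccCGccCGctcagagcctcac
Jag1: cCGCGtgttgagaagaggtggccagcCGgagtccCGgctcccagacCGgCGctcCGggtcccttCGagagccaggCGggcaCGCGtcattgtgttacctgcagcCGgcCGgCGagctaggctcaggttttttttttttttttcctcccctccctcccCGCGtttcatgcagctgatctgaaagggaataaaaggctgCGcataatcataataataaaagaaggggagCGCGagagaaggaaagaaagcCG
Notch4: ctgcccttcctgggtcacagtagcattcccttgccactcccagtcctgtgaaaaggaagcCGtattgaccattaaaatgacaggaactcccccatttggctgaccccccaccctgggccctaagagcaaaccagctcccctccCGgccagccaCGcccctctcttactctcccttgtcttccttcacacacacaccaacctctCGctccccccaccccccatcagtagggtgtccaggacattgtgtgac
The Notch1 window held 16 CpG, the Jag1 window 20 and the Notch4 window 4, against a median of 6 over 32851 RefSeq windows of the same length. The other members ranged from 14 (Dll4) to 54 (Jag2). The core letters of the RBPJ motif, TGGGAA, searched on both strands, were found in 0 of the 7 windows and in 21.6% of all windows. The longer form GTGGGAA, which contains the shorter, was in 0 of the 7 and in 5.42% of all windows. These counts describe only the letters in the windows.

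The libraries held between 5904504 and 10072495 reads in the listed genes. Rbpj, the targeted gene, stood at 174, 191 and 200 CPM (normalised reads, scaled to library size) in the controls and 169, 197 and 212 in the knockouts, so the groups overlapped, and a value from the whole wall does not check a deletion limited to endothelium. Levels are given on this CPM scale throughout unless a length is named. Before the results, several libraries stand apart from their group. The summed level of 16 endothelial markers ran from 1504 to 1550 in the controls but was 1270 in S595, 1240 in S598 and 1849 in S599, and Cdh5 itself read 198 in S599 against 109 and 111 in the other knockouts and 123 to 146 in the controls. Defining markers of the arterial wall were present in all libraries, with Pecam1 and Vwf the most abundant endothelial markers and Acta2 and Myh11 the most abundant smooth muscle markers. Summed smooth muscle markers (12 genes) ranged from 14886 to 25955 in the controls and from 27069 to 35988 in the knockouts. Macrophage markers (12 genes) ranged from 5571 to 9263 in the controls and from 2399 to 5611 in the knockouts, and fibroblast markers (10 genes) from 9997 to 16290 and from 7077 to 9464. Markers of T cells and thymocytes (10 of 12 listed) summed to 30 to 39 in the controls, 25 in S595, 211 in S598 and 88 in S599, and those of epithelium and thyroid (4 of 9 listed) to 14 to 16 in the controls and 74 to 105 in the knockouts. Adipocyte markers (8 genes) reached 3109 in control S591 against 738 to 1529 elsewhere. B cell markers (3 of 6 listed) ranged from 33 to 44 in the controls and from 18 to 33 in the knockouts, and markers of nerve and Schwann cells (4 of 7 listed) from 30 to 54 and from 31 to 37.

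The first question was how the paralogs rank in the arch. Because a longer transcript yields more reads, levels of different genes were compared per kilobase of coding length. On this scale the receptor Notch2 and the ligand Jag1 were the most abundant, at 23.1 and 22.3 CPM per kb over the 6 libraries, and Notch3 followed at 7.38. Dll4 stood at 5.56, Notch1 at 5.08, Notch4 at 3.72 and Jag2 at 1.159 CPM per kb.

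**Figure D1:**
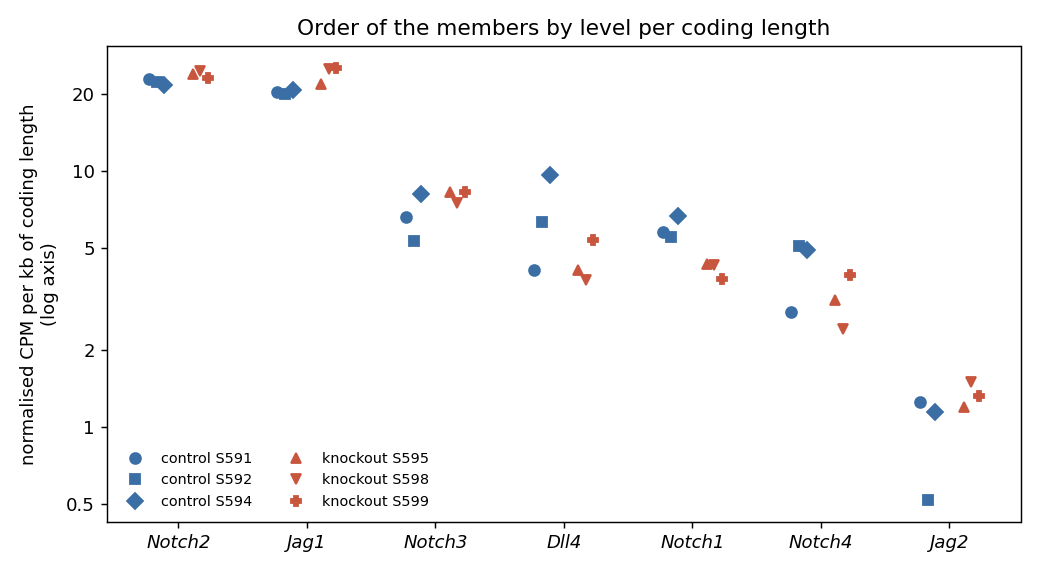
Level of each member in normalised CPM per kilobase of coding length (log axis), with 1 point per library, controls in blue and knockouts in red, ordered by the mean over 6 libraries. Notch2 and Jag1 lie near 20 CPM per kb in all 6 libraries, and Jag2 lies lowest in all 6. Among Notch3, Dll4, Notch1 and Notch4, the points of each gene overlap those of the next.

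Notch2 and Jag1 could not be put in a fixed order. Notch2 was higher in 4 libraries (the 3 controls and knockout S595), and Jag1 in knockouts S598 and S599, with ratios of Notch2 to Jag1 from 0.910 to 1.12. The step below them was clear, since Jag1 exceeded Notch3 in 6 of 6 libraries, by 2.55 to 3.74 times. Notch3, Dll4, Notch1 and Notch4 formed a middle group in which each neighbour overlapped the next over the 6 libraries. Notch3 exceeded Dll4 in 4 of 6 libraries, Dll4 exceeded Notch1 in 3, and Notch1 exceeded Notch4 in 5. In the knockouts alone, the lowest Notch3 level per kb (7.54, in S598) lay above the highest of Dll4 (5.39, in S599), while in the controls these overlapped. Notch4 exceeded Jag2 in all 6 libraries, by 1.61 to 9.79 times. Notch3 ranked 3 with each length used, but the order of Dll4, Notch1 and Notch4 depended on the length. With the whole length of the longest coding transcript Notch1 ranked 4, Notch4 ranked 5 and Dll4 ranked 6, and with all exons merged Dll4 ranked 4, Notch4 ranked 5 and Notch1 ranked 6.

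Read as shares, Notch2 made up most of the receptor message. Of the summed receptor level per kb it held 56.9% ± 4.07 in controls and 60.9% ± 2.18 in knockouts (SD, n = 3 each). Notch3 held 17.01% ± 2.89 and 20.5% ± 0.974, and Notch4 10.8% ± 3.08 and 8.07% ± 1.91, and for Notch2, Notch3 and Notch4 the libraries of the groups overlapped. The share of Notch1 was 15.2%, 14.5% and 16.1% in the controls and 10.9%, 11.1% and 9.70% in the knockouts. These shares did not overlap, and the exact two-sided permutation p was 0.1, the smallest that 3 against 3 libraries allow. The Notch1 levels behind them did not overlap either, so the shares are not a separate result. In level, 14.2% of all genes lay below every control in every knockout library. Among the ligands Jag1 held 73.15% ± 6.78 in controls and 80.7% ± 1.77 in knockouts, Dll4 23.4% ± 7.33 and 14.8% ± 2.20, and Jag2 3.48% ± 1.48 and 4.50% ± 0.426 (n = 3 each), with overlap for each of them. Control S591, with 79.2% Jag1 and 15.9% Dll4, lay within the range of the knockouts.

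**Figure D2:**
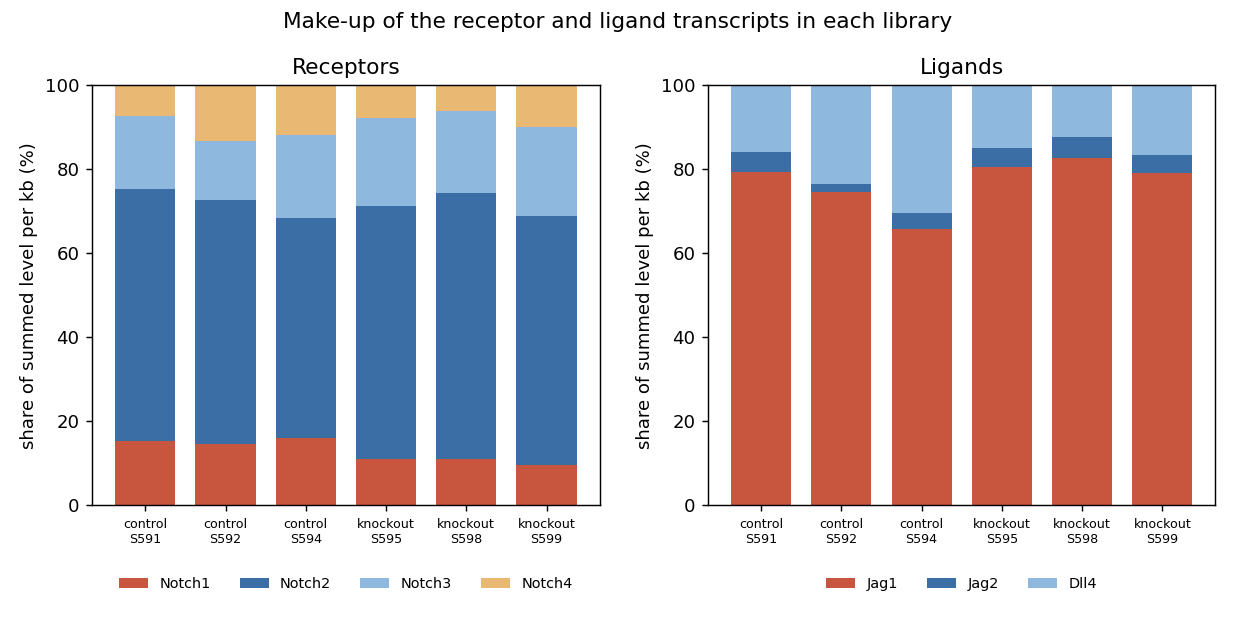
Share of each receptor (left) and each ligand (right) in the summed level per kilobase of coding length, in percent, with 1 bar per library. The Notch1 segment is 14.5% to 16.1% in the controls and 9.70% to 11.1% in the knockouts, and Notch2 and Jag1 are the largest segments in all 6 libraries.

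The second question was whether deletion of Rbpj in the endothelium went with other levels of its upstream receptors and ligands. Of the 7 members, 3 were on the lower side in the knockout arches (Notch1, Notch4 and Dll4) and 4 on the higher side (Notch2, Notch3, Jag1 and Jag2). By limma with Benjamini-Hochberg adjustment over all genes, 0 of the 7 passed the threshold of 0.05, where 0.0210% of all genes did. At an unadjusted p of 0.05, 1 member was lower (Notch1) and 1 higher (Jag1), against 12.0% and 8.04% of all genes. All 3 knockout libraries lay below all controls for 1 member (Notch1) and above them for 2 (Jag1 and Notch2), where 14.2% and 11.3% of all genes did the same. The median log2 fold change of the 7 was 0.10, beside -0.02 for all genes. Each log2 fold change compares knockout with control after 1 was added to every value, which makes changes of low genes look smaller, and group values are means ± SD over 3 libraries.

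**Figure D3:**
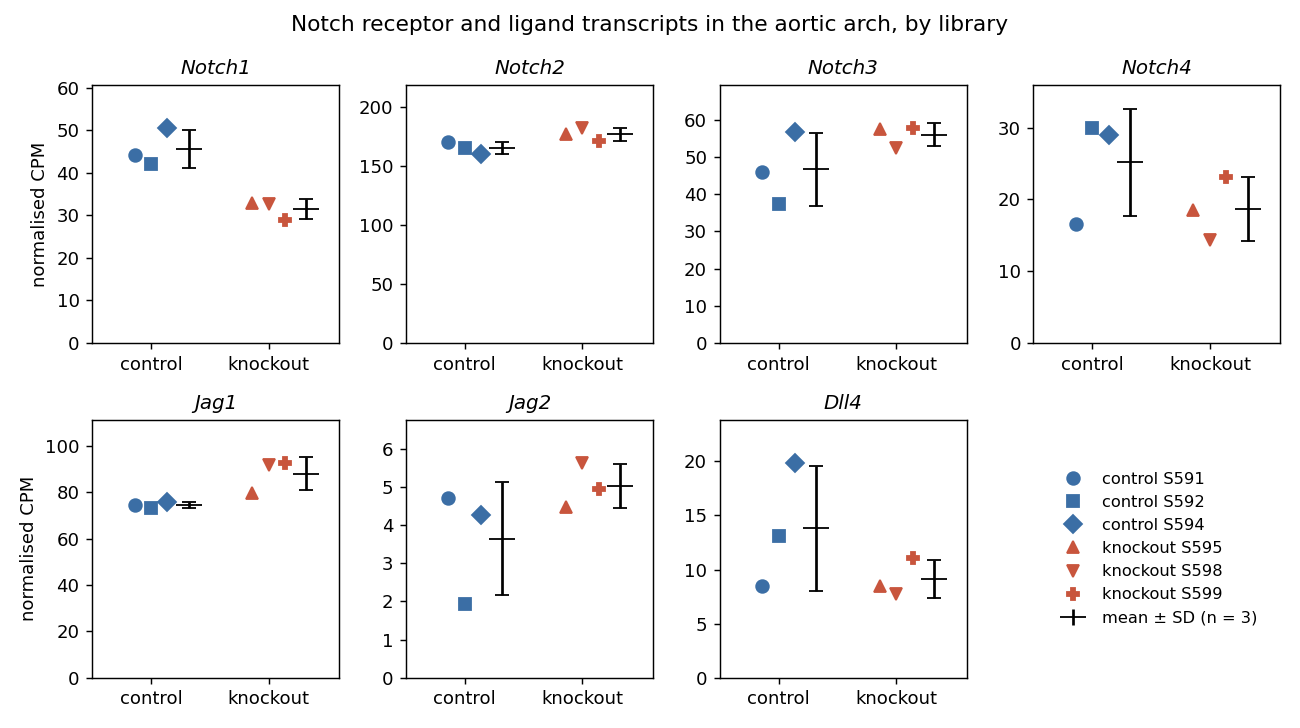
Normalised CPM of each member in each library, with controls in blue and knockouts in red, and the mean ± SD of 3 libraries beside them, each panel starting at 0. The knockouts sit below the controls for Notch1 and above them for Jag1 and Notch2, and for Notch4 and Dll4 control S591 sits among the knockouts.

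Notch1, the receptor with the best-known part in arterial endothelium, stood at 44.2, 42.2 and 50.6 in controls S591, S592 and S594 and at 32.9, 32.7 and 28.9 in knockouts S595, S598 and S599. Every knockout library was lower than every control library, and the gap between the groups was wider than the spread within either. The means were 45.6 ± 4.404 and 31.5 ± 2.30, a 1.45-fold difference, with between 183 and 408 reads per library behind them. On the log2 scale Notch1 differed by -0.52 (standard error 0.12, 95% interval -0.79 to -0.25; limma, adjusted p = 0.111). The call depended on the test. Two-sided adjusted p-values were 0.0346 by DESeq2, which called 4.56% of 13450 genes lower, and 0.0451 by limma with array weights, which called 5.06% lower. They were 0.107 by edgeR's quasi-likelihood test and 0.113 by limma-voom, and each of these called 0 of all 14298 genes. With each library left out in turn, the log2 fold change stayed between -0.57 and -0.44.

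Notch2, a receptor known from smooth muscle and many other cells, stood at 170, 165 and 160 in the controls and 178, 182 and 172 in the knockouts. The knockout values were all higher, but knockout S599 was only just above control S591. The log2 fold change was 0.10 with a 95% interval from -0.10 to 0.30 (limma, adjusted p = 0.565), that is from 0.932-fold to 1.23-fold. Notch2 had the tightest interval of the 7, with 957 to 1892 reads per library.

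Notch3, the receptor of vascular smooth muscle, stood at 45.9, 37.2 and 56.8 in the controls and 57.6, 52.4 and 57.8 in the knockouts. Control S594 reached the level of the knockouts, so the groups overlapped. The log2 fold change was 0.28 with a 95% interval from -0.09 to 0.64 (limma, adjusted p = 0.366), and it was 0.43 without control S594 and 0.13 without control S592. Markers of T cells and thymocytes, summed to 25 in S595, 211 in S598 and 88 in S599 against 30 to 39 in the controls, and their part in the Notch3 values was not tested.

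Notch4, the endothelial receptor, stood at 16.6, 30.0 and 28.9 in the controls and 18.5, 14.3 and 23.2 in the knockouts. Control S591 was below 2 of the 3 knockouts, and the other controls were above all of them. The log2 fold change was -0.39 with a 95% interval from -0.995 to 0.21 (limma, adjusted p = 0.442). It was -0.66 without control S591 (adjusted p = 0.111) and -0.22 without knockout S598.

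Jag1, the ligand named in the study's title, stood at 74.5, 73.2 and 76.0 in the controls and 80.0, 91.7 and 92.9 in the knockouts. All knockout libraries were higher, with S595 nearest the controls. The controls varied by 1.90% of their mean and the knockouts by 8.11%. The means were 74.6 ± 1.42 and 88.2 ± 7.15, a 1.18-fold difference, and the log2 fold change was 0.24 with a 95% interval from 0.01 to 0.46 (limma, adjusted p = 0.229). Under 16 alternatives, each library left out in turn included, it ranged from 0.20 to 0.30 and the adjusted p from 0.0991 to 0.564.

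Jag2, the second Jagged ligand, was near the limit of what the depth resolves. It stood at 4.71, 1.94 and 4.27 in the controls and 4.49, 5.64 and 4.95 in the knockouts, from 14 to 58 reads. Control S592 alone was low, and its 95% Poisson counting interval, 1.03 to 3.15, lay below the value of each other library. The intervals of S591, S594 and S595 began at 3.02, 2.92 and 2.96 and so overlapped it. Those of S598 and S599 began at 4.25 and 3.31 and did not. The log2 fold change was 0.43 with a 95% interval from -0.22 to 1.08 (limma, adjusted p = 0.433), and 0.13 without S592.

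Dll4, the Delta-like ligand of arterial endothelium and sprouting tip cells, stood at 8.44, 13.1 and 19.9 in the controls and 8.45, 7.76 and 11.1 in the knockouts. Controls S592 and S594 were above all knockouts and S591 was not. The controls differed among themselves beyond counting error, with intervals of 6.14 to 11.1 for S591 and 16.9 to 23.1 for S594. The log2 fold change was -0.49 with a 95% interval from -1.17 to 0.19 (limma, adjusted p = 0.391). It was -0.78 without control S591 and -0.20 without control S594.

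**Figure D4:**
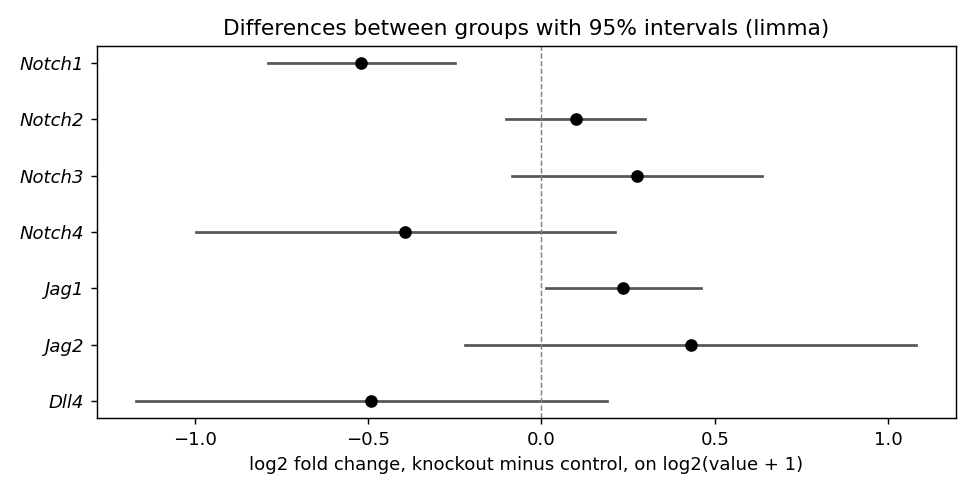
Log2 fold change of each member, knockout minus control (x axis, computed on value + 1), with points for limma estimates and lines for 95% intervals over 3 against 3 libraries. The intervals of Notch1 (-0.79 to -0.25) and Jag1 (0.01 to 0.46) lie off 0 before adjustment for 14298 genes, and those of Notch4, Jag2 and Dll4 are the widest.

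Members were also compared as ratios within a library, computed after 1 was added to each value. Without that addition the Notch1 to Jag1 difference was -0.77 in place of -0.76. Of the 21 pairs, 4 had ratios that did not overlap between the groups, and Notch1 was in each of them, against Notch2, Notch3, Jag1 and Jag2. The libraries of Notch1 alone did not overlap either, so the 4 pairs are not separate results. The share of pairs apart over all genes was not computed. The log2 ratio of Notch1 to Jag1 was -0.74, -0.78 and -0.58 in the controls and -1.25, -1.46 and -1.65 in the knockouts, a difference of -0.76. The corresponding differences were -0.62 for Notch1 to Notch2, -0.79 for Notch1 to Notch3 and -0.95 for Notch1 to Jag2. Each had an exact two-sided permutation p of 0.1, the smallest possible, and 0.467 after Benjamini-Hochberg adjustment over the 21 pairs. Against the 2 other endothelial members, the Notch1 ratio overlapped between the groups, with differences of -0.13 for Notch4 (exact permutation p = 0.8) and -0.03 for Dll4 (exact permutation p = 0.9).

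Endothelial content was also set beside each member, as the log2 level minus the mean log2 level of 16 endothelial markers of the same library. For Notch1 this was -0.34, -0.37 and -0.21 in the controls and -0.44, -0.53 and -1.26 in the knockouts. The groups did not overlap for Notch1 (difference -0.44, exact two-sided permutation p = 0.1, adjusted over 7 members 0.40), and they overlapped for the other 6 members. S599, with the highest endothelial markers, was the farthest from the controls, and without it the difference was -0.18. Without S599 the groups were also apart for Notch2 (0.40), Notch3 (0.53), Jag1 (0.47) and Jag2 (0.71), and they still overlapped for Notch4 and Dll4. Fewer libraries have to separate there, and the share of all genes apart on this measure was not computed. The subtracted mean of the 16 markers was itself lower in the remaining knockouts, 5.53 in S595 and 5.61 in S598 against 5.80 to 5.90 in the controls. For Jag1 the values were 0.40, 0.41 and 0.37 in the controls and 0.81, 0.93 and 0.40 in the knockouts, so S599 fell back among the controls. The differences for Notch4 and Dll4 were -0.31 and -0.41 (exact permutation p = 0.4 each). Relative to 12 smooth muscle markers, all 7 members had a lower mean in the knockouts, Jag1 and Notch2 included. The mean log2 level of these markers was 9.76, 9.53 and 8.94 in the controls and 10.20, 10.25 and 9.75 in the knockouts. That difference is subtracted from each member's own, so a negative value here is not by itself a lower level of the member. Notch1 differed by -1.18 with the groups apart (exact permutation p = 0.1, adjusted over 7 members 0.35). The groups overlapped for the other 6 members. Their differences were -1.15 for Dll4, -1.05 for Notch4, -0.56 for Notch2, -0.42 for Jag1, -0.38 for Notch3 (exact permutation p = 0.5) and -0.23 for Jag2. Of the macrophage markers, 9 of 12 were lower in every knockout library, beside 14.2% of all genes, in the same direction as Notch1, and their part in its difference was not tested.

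**Figure D5:**
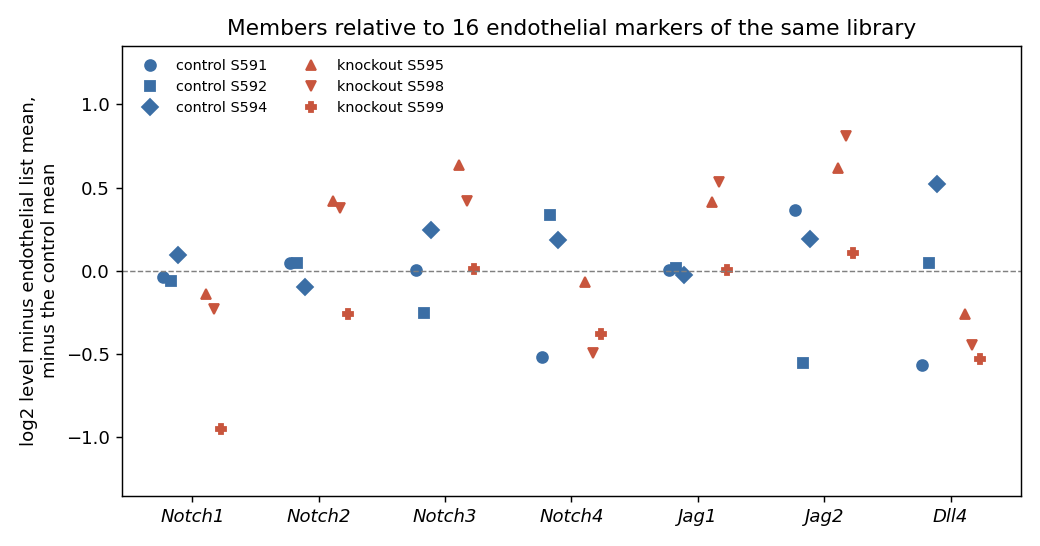
Log2 level of each member minus the mean log2 level of 16 endothelial markers in the same library, shown as the difference from the control mean (y axis, log2 units), controls in blue and knockouts in red. The 3 knockouts lie below the 3 controls for Notch1, with S599 the lowest, and the groups overlap for the other 6 members.

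Members also differed in how they varied over the 6 libraries. Likeness was measured as the root mean square (RMS) difference in log2 units between 2 genes, each centred on its own mean. Among members, Notch2 and Jag1 were closest (0.11), then Notch3 and Jag1 (0.18). These distances are not small beside the spread of each gene about its own mean, 0.061 for Notch2, 0.14 for Jag1 and 0.23 for Notch3. Notch4 and Dll4 differed by 0.20, which is small beside the spread of each about its own mean (0.38 and 0.43), and both had S591 and S598 as their 2 lowest libraries and S592 and S594 as their 2 highest. Over all genes with a symbol and a mean of at least 5 CPM, Notch4 was most like the formin gene Fmn1 (0.081) and Tnfsfm13 (0.096), a read-through gene whose reads may be shared with its neighbours. Dll4 was most like Vash1, the gene of an endothelial angiogenesis inhibitor (0.074), and the pseudogene Rpl19-ps11 (0.080), which shares reads with near-identical copies and is uncertain. Vash1 stood at 11.8, 19.4 and 25.5 in the controls and 12.4, 11.8 and 16.6 in the knockouts, with the libraries in the same order as for Dll4. Notch1 was most like Ssbp4 (0.053) and Dennd4b (0.058) beside a spread of its own of 0.28. The nearest to Jag1 were A530017D24Rik (0.023) and the Wnt coactivator gene Bcl9 (0.027), beside a spread of 0.14. For Notch2 they were Wdr48 (0.019) and the ubiquitin-like modifier gene Sumo3 (0.021), for Notch3 they were Reep2 (0.10) and Zfp46 (0.11), and for Jag2 they were Tppp (0.15) and Ccdc69 (0.16).

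The rest of the pathway was read through 6 lists. By limma 0 genes of these lists passed over all genes tested. Tests by edgeR and limma-voom also called 0, in these lists and over all genes. Counts of genes apart in the lists are to be read beside the 11.3% of all genes above and the 14.2% below every control, and counts at an unadjusted p below 0.05 beside 8.04% higher and 12.0% lower. Among 10 sheddases and gamma-secretase genes, whose products cleave the receptors, all 3 knockouts lay below all controls for 5, and the same number were lower at an unadjusted p below 0.05. Their median log2 fold change was -0.45, and 1 of the 10 was positive. The convertase gene Furin, whose product cuts the receptor precursor, stood at 137 ± 25.8 and 87.6 ± 5.90 (n = 3 each; limma, adjusted p = 0.112), and Adam17 at 95.9, 114 and 126 in the controls and 70.4, 68.1 and 89.3 in the knockouts. DESeq2 called both lower, where it called 4.56% of 13450 genes lower. The summed macrophage markers overlapped between the groups, with knockout S599 (5611) just above control S591 (5571) and the other knockouts at 3061 and 2399, and their part in these differences was not tested. Fringes and other receptor glycosyltransferases had a median of 0.05, with 2 of 9 lower in every knockout library, Lfng (log2 fold change -0.79) and Xxylt1 (-0.20), and 1 at an unadjusted p below 0.05.

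The same shares of all genes, 11.3% above and 14.2% below every control, stand beside the counts of the other lists. Ligands outside the main set and ligand-like proteins had a median of 0.21 over 6 measured of 9 listed. The microfibril protein gene Mfap5 stood at 158 ± 6.37 and 196 ± 21.2 (n = 3 each), higher in every knockout library, and it was the 1 gene at an unadjusted p below 0.05, while Dner (log2 fold change 0.59) lay near the detection limit. Genes of ligand and receptor endocytosis and turnover had a median of 0.17 over 15, with 4 higher and 2 lower in every knockout library, and 2 lower at an unadjusted p below 0.05. Those 2 were the Deltex gene Dtx4 (log2 fold change -0.64) and the epsin gene Epn1 (-0.32). In the nuclear complex (17 genes, median 0.06), 4 were higher in every knockout library, the coactivator genes Maml2 (0.41) and Kat2b (0.28) among them, and these were the 2 at an unadjusted p below 0.05. Of the Hes, Hey and feedback targets (14 measured of 17, median -0.09), 1 was higher and 3 were lower in every knockout library and at an unadjusted p below 0.05. Hey2 stood at 53.9, 54.3 and 38.2 in the controls and 70.8, 99.7 and 82.2 in the knockouts, and the cell cycle inhibitor gene Cdkn1a at 62.3 ± 10.04 and 39.3 ± 6.38 (n = 3 each). DESeq2 called Hey2 higher, where it called 2.13% of genes higher, and Cdkn1a lower, where it called 4.56% lower. Of the smooth muscle markers, 6 of 12 were higher in every knockout library, beside 11.3% of all genes. Hey2, Mfap5, Maml2, Kat2b and Jag1 were also higher in every knockout library. Relative to the 12 smooth muscle markers, whose higher mean in the knockouts is subtracted, Jag1 differed by -0.42 with overlap between the groups (exact permutation p = 0.3). The part of the markers in the differences of these genes was not tested.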

How the data were processed

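PolyA RNA of whole aortic arches was sequenced in 3 control and 3 knockout libraries, with groups taken from the titles. Columns carry the group and a library number, but no replicate number. The deposited values are a normalised signal per gene and library, and read back as (reads + 0.5) on a CPM scale of a scaled library size (100% of values whole at a tolerance of 0.01 reads). The submitters' processing notes name build NCBIM37, Bowtie 0.12.7, RSEM 1.16, cutadapt 1.6.1, CASAVA 1.8, edgeR and limma, without roles. Annotation and strand: not given in the sources used here. Every listed gene reached at least 1.05 in 3 libraries, and lower genes were not analysed here.

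Symbols were matched by Ensembl identifier (13828 of 14298). The test was limma (version 3.58.1, R 4.3.3), fitted to log2(value + 1) by genotype with a variance trend, two-sided, with Benjamini-Hochberg adjustment over 14298 genes and a threshold of 0.05. Alternatives included edgeR 4.0.16 and DESeq2 1.42.0 on recovered reads, whole numbers that need no rounding. Coding lengths came from GENCODE on GRCm38, another build than the notes name, since no protein table was used here. Counting intervals are exact Poisson and cover only counting error, because PCR copies were not marked by molecular identifiers. The comparison was tested on simulated counts. Genes named were the members, Rbpj, Cdh5, the 2 genes of each pathway list with the smallest p, the 2 most abundant markers of the main cell types and the 2 genes most like each member. Members and lists were chosen with earlier results of these data known, and 2 of the length alternatives were added after seeing the data. The p-values measure the spread between 3 libraries per group, and those of limma, edgeR and DESeq2 also draw on the variance of other genes.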

Additional observations from a re-analysis of the deposited data

How the results depend on the processing

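All 7 members kept their direction under all 16 alternatives run (15 for Jag2, which a filter on a mean of at least 5 CPM removes). Notch1 passed the threshold with array weights (log2 fold change -0.48) and DESeq2 (-0.52) and in no other alternative, with adjusted p-values from 0.0346 to 0.343, and the other 6 members passed in none. The count of 3 genes called by limma became 0 with a pseudocount of 0.5, without one, or with genes of a mean of at least 5, 1 without the intensity trend, 1011 with array weights, 900 by DESeq2, and 0 by edgeR (2899 at an unadjusted p of 0.05) and limma-voom (2988). With 1 library left out it ran from 0 to 671, the highest without control S591. With each library left out, log2 fold changes ran from -0.57 to -0.44 for Notch1, 0.08 to 0.12 for Notch2, 0.13 to 0.43 for Notch3, -0.66 to -0.22 for Notch4, 0.20 to 0.30 for Jag1, 0.13 to 0.61 for Jag2 and -0.78 to -0.20 for Dll4. Pairs of members with ratios apart numbered 13 without control S591 and 8 without knockout S599, where fewer libraries have to separate. Without division by length, Notch1, Notch4 and Dll4 ranked 4, 5 and 6, and without control S594 Notch1 ranked 4 and Dll4 ranked 5. The cause of these changes was not tested. No paired analysis was possible because the columns carry none of the replicate numbers of the labels. Read number limits Jag2 and Dll4 most (14 to 160 reads per library).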
